A study of Homo sapiens with 20 samples.

Results

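The 10 WNT ligand genes WNT2, WNT2B, WNT3, WNT5A, WNT5B, WNT7A, WNT7B, WNT9A, WNT11 and WNT16 were examined for chromatin loops at their start sites in human glioblastoma (GBM) cells that differ in the cohesin subunit STAG2. An anchor pair belonged to a ligand when 1 of its 5 kb anchors lay within 3 kb of a transcript start of the gene. This held for 691 of the 572000 anchor pairs found in any of the 4 loop lists, and 7 of the 10 genes had such a pair. Of 20149 protein-coding genes, 10019 had one. H4 and 42MGBA are established GBM cell lines with a STAG2 mutation of tumor origin (STAG2-mutant). H4 88-1, derived from H4, and 42MGBA 53-1, derived from 42MGBA, are single edited lines in which that mutation was corrected (STAG2-corrected). Each parent line has 1 such derivative, so that correction cannot be told apart from other differences between derivative and parent line. The cells were untreated. Hi-C captures contacts between distant stretches of DNA that were neighbors in the fixed nucleus, and the authors deposited, per cell line, the 300000 strongest anchor pairs with a signal called loop strength here. The 2 biological replicates of a cell line are pooled in 1 list, so that no difference below has a replicate check and none was tested. The lists hold no read counts, and the counting error is unknown.

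WNT genes encode secreted lipid-modified ligands that bind Frizzled receptors together with LRP5 or LRP6, or with ROR and RYK receptors. WNT7A and WNT7B act mainly through beta-catenin, the branch that ends in TCF and LEF transcription factors, and in the brain both are known for their role in the growth of blood vessels. WNT5A, WNT5B and WNT11 are known for signaling without beta-catenin, in cell polarity and movement. Cohesin extrudes chromatin loops, and STAG2 is 1 of its alternative subunits.

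Within each pair of STAG2-mutant and STAG2-corrected lines, WNT7A and WNT7B alone had anchor pairs past the cutoff used below. Most of these anchor pairs entered the comparison because they were strong in 1 line alone. The WNT7B calls were not kept after subtracting the chromosome median. WNT7A (ENSG00000154764) is on the minus strand of chromosome 3 with its canonical start at position 13921568, and WNT7B (ENSG00000188064) is on the minus strand of chromosome 22 with its canonical start at position 46373042 (hg19, GENCODE). The 300 bases before the WNT7A start (chr3:13921569-13921868) are shown because WNT7A had the most extreme z-scores of the ligands within both isogenic pairs. They lie in the anchor that holds the start, and the anchor of the strongest loop begins just upstream of them. They are written 5′ to 3′ on the gene's strand with each CG dinucleotide in capitals.
WNT7A: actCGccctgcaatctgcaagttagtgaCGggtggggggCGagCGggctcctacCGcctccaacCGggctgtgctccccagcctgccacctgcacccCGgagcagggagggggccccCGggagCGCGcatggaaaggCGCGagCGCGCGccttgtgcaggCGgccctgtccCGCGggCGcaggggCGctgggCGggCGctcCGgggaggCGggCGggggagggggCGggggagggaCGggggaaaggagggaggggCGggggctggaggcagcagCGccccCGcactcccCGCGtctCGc

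This sequence holds 33 CG dinucleotides, against a median of 20 over the same stretch of 20132 protein-coding genes, and 80.4% of those genes had fewer. Of the 9 ligands counted, WNT9A had the most, with 52, and WNT5B the fewest, with 11. The TCF and LEF letters CTTTGAT, searched on both strands, were in the stretch of 0 of these 9 ligands and of 2.18% of all genes.

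The ligands differed widely in how many anchor pairs were listed and in which cells. WNT7B had 85 and 124 listed pairs in H4 and H4 88-1, and 85 and 51 in 42MGBA and 42MGBA 53-1. It was present in all the lists, and 51 of its 131 pairs (38.9%) were in every list, against 19.3% of all anchor pairs. WNT7A had 6, 32 and 17 pairs in H4, H4 88-1 and 42MGBA, and 0 in 42MGBA 53-1. WNT5B had 127 and 101 pairs in H4 and H4 88-1 but 14 in each 42MGBA line. WNT5A had the reverse order, with 19 and 90 pairs in the H4 lines and 256 and 267 in 42MGBA and 42MGBA 53-1. WNT9A had 7, 19, 12 and 21 pairs in the same order of lines. WNT11 was listed only in 42MGBA, with 22 pairs, and 42MGBA 53-1, with 14 pairs.

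WNT2B was listed in the STAG2-corrected lists alone, with 4 pairs in each. These were different pairs. In H4 88-1 the partner anchors lay at CAPZA1 and ST7L (highest strength 5.58). In 42MGBA 53-1 they lay in a region that reaches CTTNBP2NL, and they paired with another start of WNT2B. The strongest pair there (5.57) had a partner anchor without a protein-coding gene. All of the WNT2B strengths were below the 100000 strongest of their list, and WNT2B therefore entered no comparison. WNT2, WNT3 and WNT16 had no listed pair in any line. The nearest listed anchor lay 45.8 kb from a start of WNT2, 332 kb from WNT3 and 3.52 kb from WNT16. The lists of H4 and H4 88-1 end at strengths of 4.14 and 4.44, and those of 42MGBA and 42MGBA 53-1 at 4.49 and 4.28, so that a weaker loop at these genes would not be seen.

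**Figure D1:**
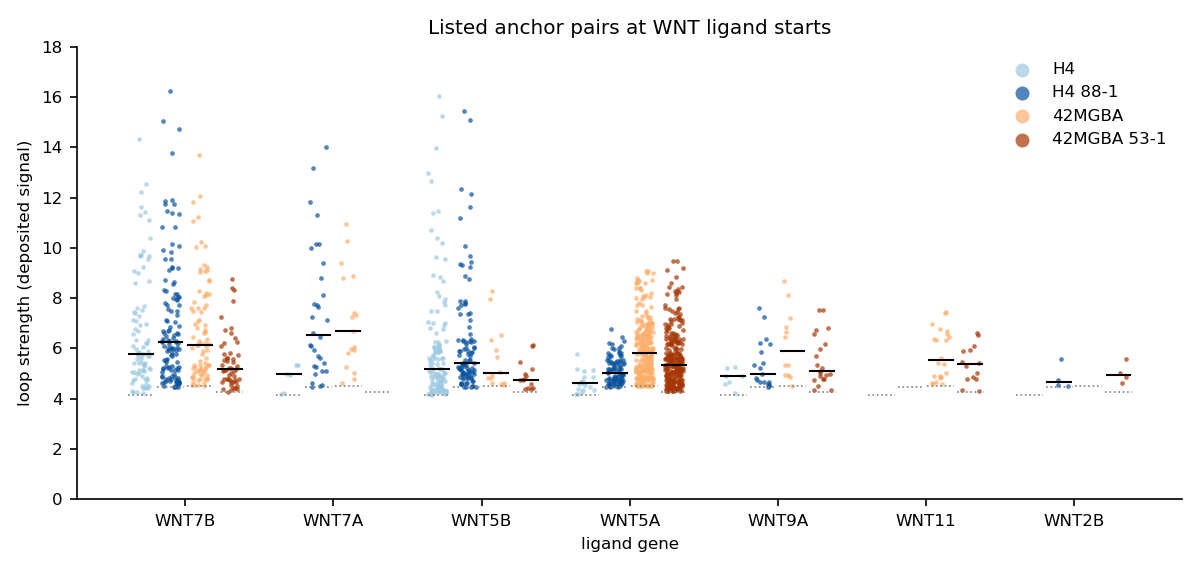
Loop strength (deposited signal, y axis) of every listed anchor pair at 7 WNT ligand genes (x axis), with the 4 cell lines side by side. Each point is an anchor pair, black bars are medians and dotted bars mark the lowest strength of each list; WNT7B reaches 16.25 in H4 88-1 and 8.78 in 42MGBA 53-1, and WNT7A has no point in 42MGBA 53-1.

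The strongest WNT7B loop was the same anchor pair in all 4 lines. It joined the anchor that holds the WNT7B start (chr22:46369979-46374901) to an anchor 399 kb away (chr22:45971127-45975820) that overlaps an exon and lies within 3 kb of a transcript start of FBLN1, the gene for the matrix protein fibulin-1. In H4 the strength of this pair was 14.35 and in H4 88-1 it was 16.25, while in 42MGBA it was 13.70 and in 42MGBA 53-1 it was 8.78. The first 3 values lie near each other and that of 42MGBA 53-1 stands below them. Among the 300000 pairs of each list it ranked 2100, 1142, 3582 and 19211. Over the 51 WNT7B pairs present in every list the median strength was 7.12, 8.55, 7.59 and 5.18 in that order of lines, while over all 110313 pairs present in every list it was 6.23, 6.70, 6.80 and 6.23. H4 88-1 exceeded H4 in 43 of the 51 pairs and 42MGBA 53-1 in all 51, and 42MGBA exceeded 42MGBA 53-1 in 48. H4 and 42MGBA could not be ordered in this way, since H4 was higher in 30 and 42MGBA in 21. The 51 pairs share anchors and are not independent of each other. Among the chromosome 22 pairs that enter the comparisons below, 81.6% were higher in H4 88-1 than in H4. In 42MGBA 53-1, 23.7% were higher than in 42MGBA, and 41.2% were higher than in H4 88-1.

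Along its partner anchors WNT7B had 4 summits, each the strongest listed pair within 20 kb. Besides the FBLN1 summit, an anchor without a protein-coding gene 331 kb downstream of the start (chr22:46039800-46044532) had strengths of 11.32, 11.87, 10.05 and 6.72 in the same order of lines. This summit, like that at FBLN1, was lowest in 42MGBA 53-1 and differed little between H4 and H4 88-1. A summit at the start of ATXN10, the ataxin-10 gene (chr22:46068309-46073014, 302 kb from the WNT7B start), had strengths of 5.36, 9.23, 5.32 and 5.44. It was high in H4 88-1 alone. The last summit lay 72.5 kb downstream of the start, beyond the end of WNT7B and at no protein-coding gene, and was listed only in H4 88-1, with a strength of 6.68. The region around it, 67.5 to 119 kb from the start, had 29 pairs in H4 88-1, 5 in 42MGBA (highest 5.33) and none in H4 or 42MGBA 53-1.

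The strongest WNT7A loop was likewise the same pair wherever WNT7A was listed. It joined an anchor that begins 340 bases upstream of the WNT7A start (chr3:13921908-13926860) to an anchor without a protein-coding gene 223 kb away (chr3:13698853-13703877). The pair had a strength of 5.35 in H4, of 14.03 in H4 88-1 and of 10.97 in 42MGBA. It was not listed in 42MGBA 53-1, whose lowest kept strength was 4.28. WNT7A had this summit only. Its partner anchors, 182 to 244 kb downstream, formed 1 region (chr3:13675514-13742437), which overlaps an exon of FBLN2, the fibulin-2 gene, and has a transcript start of it within 3 kb. The anchor that holds the WNT7A start itself (chr3:13917047-13921907) reached 4.99, 11.29 and 9.38 with the same partner in H4, H4 88-1 and 42MGBA.

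**Figure D2:**
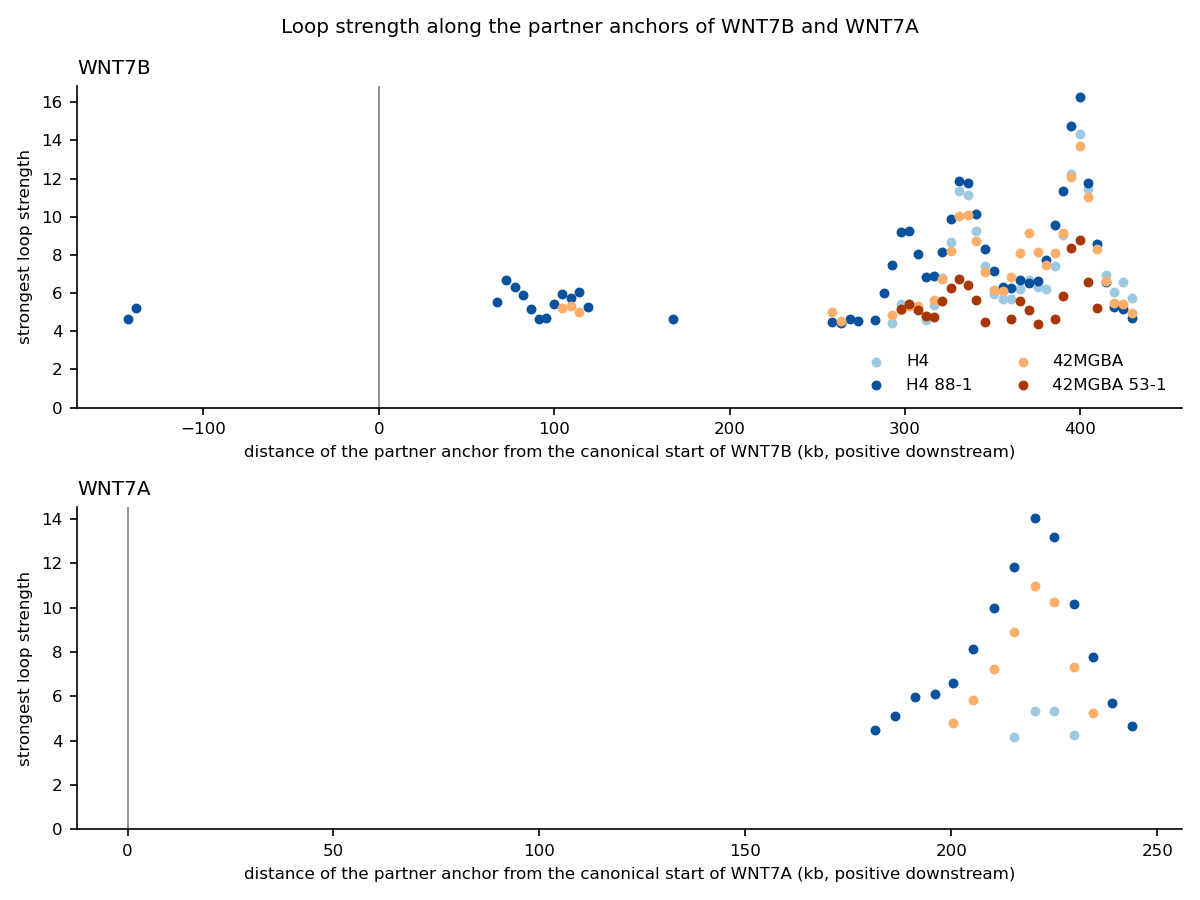
Highest loop strength (y axis) at each partner anchor of WNT7B (top) and WNT7A (bottom) against the distance of the partner anchor from the canonical start in kb (x axis, positive downstream), by cell line. For WNT7B the 2 farthest summits, 331 and 399.6 kb away, are lowest in 42MGBA 53-1 and the ATXN10 summit at 302 kb is high in H4 88-1; the WNT7A summit is lowest in H4 and absent in 42MGBA 53-1.

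Correction of STAG2 in H4 cells was examined by merging the 100000 strongest pairs of both lists, with a pair absent from a list set to the lowest strength of that list, and regressing the strength in H4 88-1 on that in H4 through the origin. Pairs with a residual z-score beyond 1.96 on either side were called gained or lost. WNT7A and WNT7B had gained pairs in H4 88-1, and no ligand had a lost pair. Of 143 merged pairs at the ligands, 14 (9.79%) were gained, against 1.94% of all merged pairs, and 0 were lost, against 2.17%. Of all protein-coding genes with a merged pair, 9.56% had a gained pair. Neighboring pairs of a gene share anchors and are not independent of each other. A pair that is among the 100000 strongest in 1 list alone had to be high there. Directions, medians and counts of calls over merged pairs are therefore partly set by the merge. All 14 gained pairs entered through H4 88-1 alone, which the share over all merged pairs does not allow for. How many pairs entered through which list is given below.

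WNT7A accounted for 10 of the 14. All 17 of its merged pairs entered through H4 88-1 alone, which fixed their direction, and their median log2 ratio of 1.04 is given as a description. Of the 17, 11 were absent from H4. The 6 WNT7A pairs listed in H4 ran from 4.18 to 5.35 there, and the same 6 ran from 10.17 to 14.03 in H4 88-1. The gained pairs reached from 8.14 to 14.03 in H4 88-1, and 4 of them were absent from H4. The strongest pair was 2.62-fold higher in H4 88-1 (z = 4.95) and the smallest z-score of WNT7A was 1.17. The other merged pairs within 1 Mb of the gene were also higher, with a median log2 ratio of 0.66 over 80 pairs of which 29 were gained, while the median of chromosome 3 was 0.10. The part of this regional difference in the result for WNT7A was not tested.

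WNT7B had 4 gained pairs of 68. All 4 had their partner anchor at the start of ATXN10 or in the adjoining anchor in an ATXN10 intron, between 298 and 302 kb from the WNT7B start. Their strengths were 4.41 to 5.36 in H4 and 8.04 to 9.23 in H4 88-1. Their z-scores reached 2.09, close to the cutoff. At the FBLN1 summit the strength in H4 88-1 was 1.13-fold that in H4 (z = 0.79), and at the summit without a gene it was 1.05-fold (z = 0.03). The median log2 ratio of the 68 pairs was 0.26, with 57 above 0 and 11 below. Of the 37 pairs among the strongest in both lists, 30 were above 0 and 7 below, while the 27 that entered through H4 88-1 alone, the 4 gained pairs among them, were above 0 by construction. The median of all pairs on chromosome 22 was 0.34, and that of 117 other pairs within 1 Mb was 0.53, of which 16 were gained. After subtracting the chromosome median, 29 WNT7B pairs lay above 0 and 39 below, their median was −0.08, and 0 were gained and 1 was lost. The median of the WNT7B pairs was thus not above that of chromosome 22, which includes them, and relative to it lay near 0. This difference was not tested.

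The other ligands had no gained or lost pair in this comparison. WNT5B, with 51 merged pairs, had a median log2 ratio of −0.05 and z-scores from −1.55 to 1.04. Its strongest loop was nearly the same in both lines, at 16.06 in H4 and 15.47 in H4 88-1. The 3 merged pairs of WNT5A were all absent from H4 and reached 6.79 in H4 88-1 (z up to 1.38). The 4 merged pairs of WNT9A entered through H4 88-1 alone, with z-scores from 0.46 to 1.39.

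Correction of STAG2 in 42MGBA cells was examined in the same way. WNT7A and WNT7B had lost pairs in 42MGBA 53-1 and no ligand had a gained pair. Of 190 merged pairs at the ligands, 11 (5.79%) were lost, against 2.45% of all merged pairs, and 0 were gained, against 1.61%. A lost pair was found at 7.14% of all protein-coding genes with a merged pair. Most of the 11 lost pairs entered through 42MGBA alone, which the share over all merged pairs does not allow for.

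All 9 merged WNT7A pairs were absent from 42MGBA 53-1, with strengths from 6.68 to 10.97 in 42MGBA, through which alone they entered, and 5 of them were lost. The strongest pair was at least 2.57-fold lower in 42MGBA 53-1 (z = −3.63). The median log2 ratio was −1.04, a bound since each value in 42MGBA 53-1 was set to the lowest of the list. Of 57 other pairs within 1 Mb, 2 were lost and the median log2 ratio was −0.18, near the median of chromosome 3 of −0.17.

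WNT7B had 6 lost pairs of 39. All 39 were lower in 42MGBA 53-1, with a median log2 ratio of −0.63 and z-scores from −2.33 to −0.17. Of these, 26 entered through 42MGBA alone, which fixed their direction, and all 13 that were among the strongest in both lists were lower too, 3 of them lost. The lost pairs all had their partner anchors 371 to 404 kb from the WNT7B start (chr22:45966192-46005010), at and next to the FBLN1 summit, with strengths from 8.16 to 13.70 in 42MGBA and from 4.40 to 8.78 in 42MGBA 53-1. At the FBLN1 summit 42MGBA was 1.56-fold higher (z = −2.33), and the summit without a gene had a z-score of −1.56. At ATXN10 the strengths were 5.32 and 5.44. The median of chromosome 22 was −0.29 and that of 87 other pairs within 1 Mb was −0.25, with 1 pair lost and 1 gained. After subtracting the chromosome median, 36 of the 39 WNT7B pairs were below 0, with a median of −0.34, but none was lost any longer (z down to −1.79). The part of the chromosome-wide difference in the WNT7B values was not tested further.

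None of 119 merged WNT5A pairs, 12 WNT11 pairs, 7 WNT9A pairs and 4 WNT5B pairs was gained or lost. WNT5A had a median log2 ratio of −0.11 with z-scores from −1.38 to 1.58. Its strongest pairs were 9.10 in 42MGBA and 9.48 in 42MGBA 53-1 and lay in different places, 319 and 294 kb downstream of the start in a stretch without protein-coding genes. Both used a WNT5A anchor 24 bases from a transcript start and 17189 bases from the canonical start. WNT11 had its strongest loop in the same place in both lines, an intron of UVRAG 310 kb downstream of its start, with a strength of 7.46 in 42MGBA and 6.62 in 42MGBA 53-1. A second WNT11 region next to LRRC32, with its summit in a pair of 479 kb upstream, had 10 pairs in 42MGBA, up to 6.55, and none in 42MGBA 53-1. The z-score at its summit was −1.13. The median log2 ratio of WNT11 was −0.32, and that of chromosome 11 was −0.43.

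**Figure D3:**
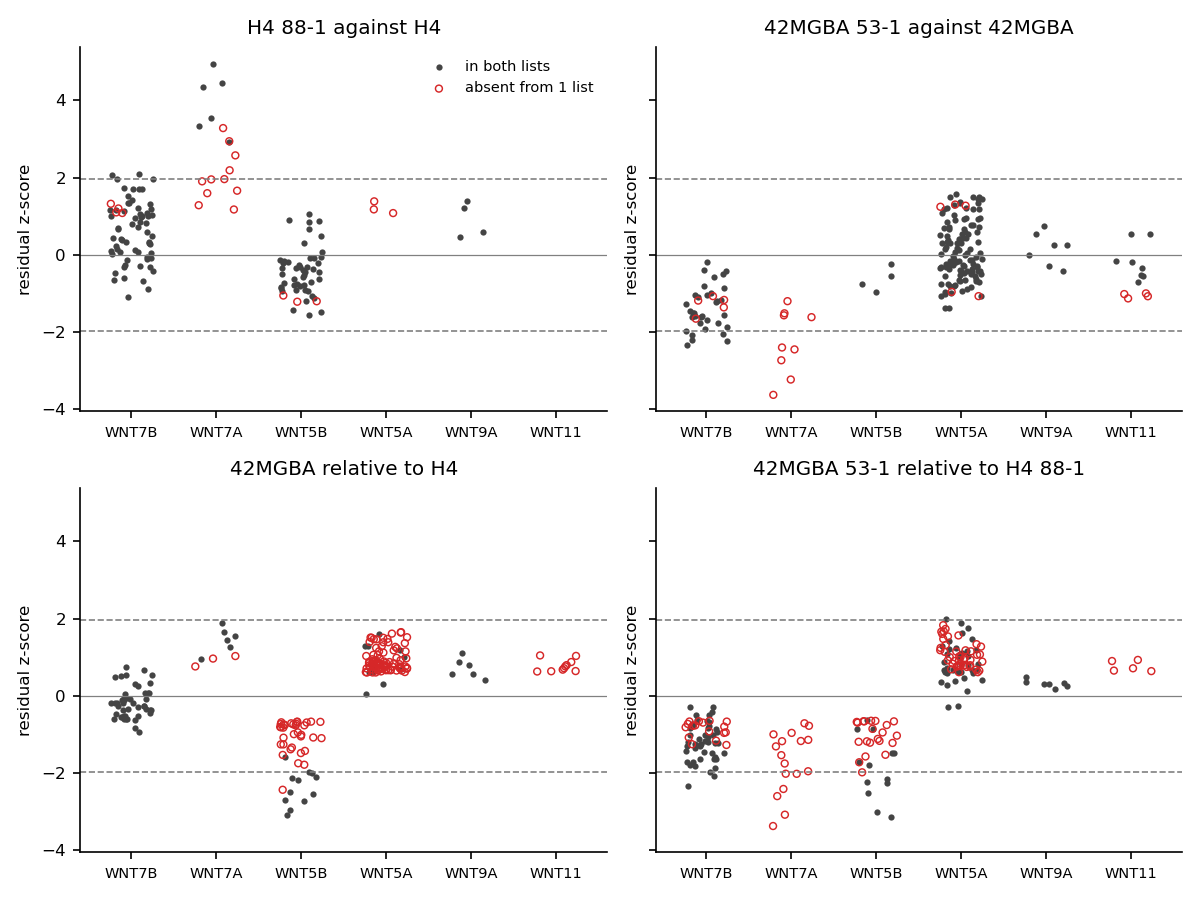
Residual z-scores (y axis) of the merged anchor pairs at 6 WNT ligands (x axis) in 4 comparisons, with dashed lines at the cutoff of 1.96 on either side; open points are pairs absent from 1 of the lists and points above 0 are higher in the line named first in the title of each panel. WNT7A reaches 4.95 in H4 88-1 against H4 and −3.63 in 42MGBA 53-1 against 42MGBA, and the WNT5B pairs lie below 0 in both comparisons between systems. Of these WNT5B pairs, 42 of 46 entered through H4 alone and 32 of 34 through H4 88-1 alone, so that the merge partly set their direction.

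Set side by side, WNT7A and WNT7B had gained pairs in H4 88-1 against H4 and lost pairs in 42MGBA 53-1 against 42MGBA. For WNT7B this depended on the scale, since after subtracting the chromosome medians it had no gained pair in H4 88-1, no lost pair in 42MGBA 53-1, and a median below 0 in both. For WNT7A 9 pairs were merged in both systems, and 5 were gained in one and lost in the other. Their opposite directions followed from the merge, as they entered through H4 88-1 alone in one system and through 42MGBA alone in the other. For WNT7B the gained and lost pairs were not the same. Of 35 pairs merged in both systems 27 had these opposite directions, and 8 were lower in both STAG2-corrected lines, but none of the 4 gained pairs at ATXN10 was among the 6 lost pairs at FBLN1. Opposite directions of this kind were found in 27524 of 68322 pairs merged in both systems (40.3%). Of 3356 protein-coding genes with a merged pair in both systems, 39 (1.16%) had gained but no lost pairs in H4 88-1 and lost but no gained pairs in 42MGBA 53-1, and WNT7A and WNT7B were 2 of the 5 ligands that could be compared. The difference between systems was not tested, as each value comes from 1 pooled list.

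**Figure D4:**
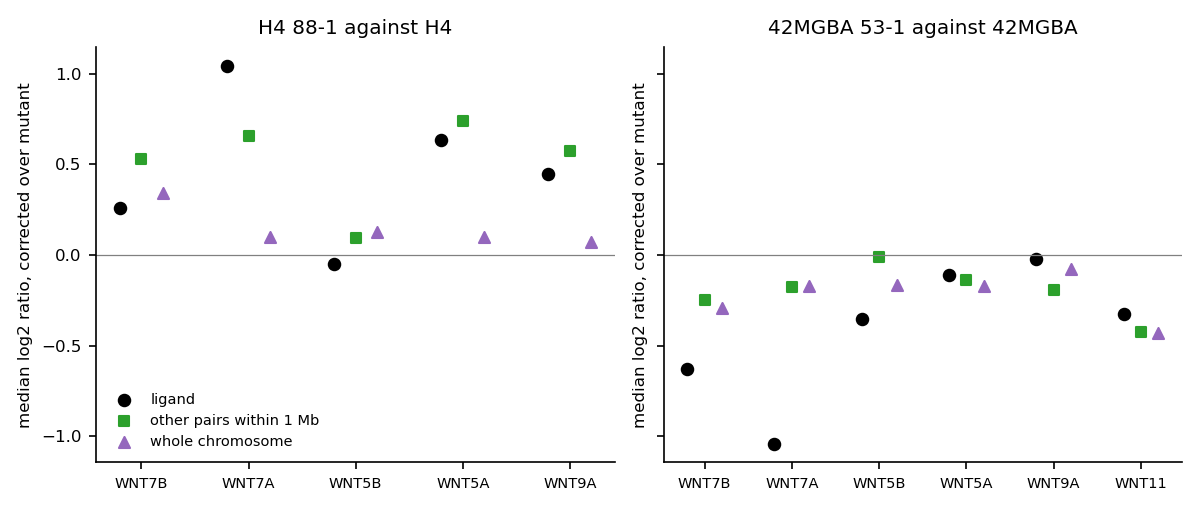
Median log2 ratio of STAG2-corrected over STAG2-mutant strength (y axis) for each ligand (black), for the other merged pairs within 1 Mb (green) and for the whole chromosome (purple), in both isogenic pairs. WNT7A lies farthest from 0 in both, at 1.04 and −1.04, and WNT7B lies at 0.26 in the H4 pair, below the 0.34 of its chromosome, and at −0.63 in the 42MGBA pair. The signs of the WNT7A medians were fixed by the merge, and absent pairs were set to the lowest strength of their list.

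The systems themselves were compared between the STAG2-mutant lines and between the STAG2-corrected lines. These comparisons use the same 4 lists as those above and are not independent of them. WNT5B was stronger in H4 cells. Between H4 and 42MGBA, 12 of 213 merged pairs at the ligands (5.63%) were lower in 42MGBA, against 1.93% of all merged pairs, and all 12 were WNT5B pairs, of 46 merged. Of the 46, 42 entered through H4 alone, and the 4 that were among the strongest in both lists were all among the 12. None was higher in 42MGBA, against 2.11% of all merged pairs. The strongest WNT5B loop (chr12:1228506-1233425 with chr12:1686011-1691024, 458 kb) had strengths of 16.06 and 15.47 in H4 and H4 88-1, against 7.97 and 6.13 in 42MGBA and its derivative. Both H4 lines stood above both 42MGBA lines, by 2.02-fold between the STAG2-mutant lines (z = −3.10) and 2.52-fold between the STAG2-corrected lines (z = −3.13).

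The partner anchor of this loop lies in an intron of ERC1, a gene for a scaffold protein of the cell cortex. The other anchor lies 2188 bases from an upstream transcript start of WNT5B and 47373 bases from its canonical start. With canonical starts alone WNT5B kept 1 merged pair between H4 and 42MGBA and no call. At the far end of the gene, an anchor 547 bases from the last annotated start was joined to CACNA2D4, the gene for a calcium channel subunit, with strengths of 8.10 in H4, 9.35 in H4 88-1 and 4.91 in 42MGBA 53-1, and no listing in 42MGBA.

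WNT5A had 95 merged pairs between H4 and 42MGBA, which all entered through 42MGBA alone and therefore were higher there, and 84 of them were absent from H4. None passed the cutoff (z up to 1.65). After subtracting the chromosome median 28 of the 95 were called higher in 42MGBA (z up to 2.53), against 2.98% of all merged pairs. With 200000 pairs merged, 10 of 184 WNT5A pairs were called higher, against 2.69% of all merged pairs. The anchor pair with an intron of ERC2, the paralog of ERC1, a pair of 236 kb on the upstream side, was not listed in H4 and had strengths of 5.75 in H4 88-1, 9.07 in 42MGBA and 9.48 in 42MGBA 53-1. On the other side, 634 kb downstream of the start, an intron of CACNA2D3, another calcium channel subunit gene, reached 4.17, 4.55, 8.98 and 7.57 in H4, its derivative, 42MGBA and its derivative. Both 42MGBA lines stood above both H4 lines at each of these pairs. The WNT5A anchor of the CACNA2D3 pair lies 17189 bases from the canonical start. The median log2 ratio of WNT5A was 0.73, that of 184 other pairs within 1 Mb was 0.78, and that of chromosome 3 was −0.20. For WNT5B it was −0.65, against −0.56 in 96 other pairs and −0.19 on chromosome 12.

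**Figure D5:**
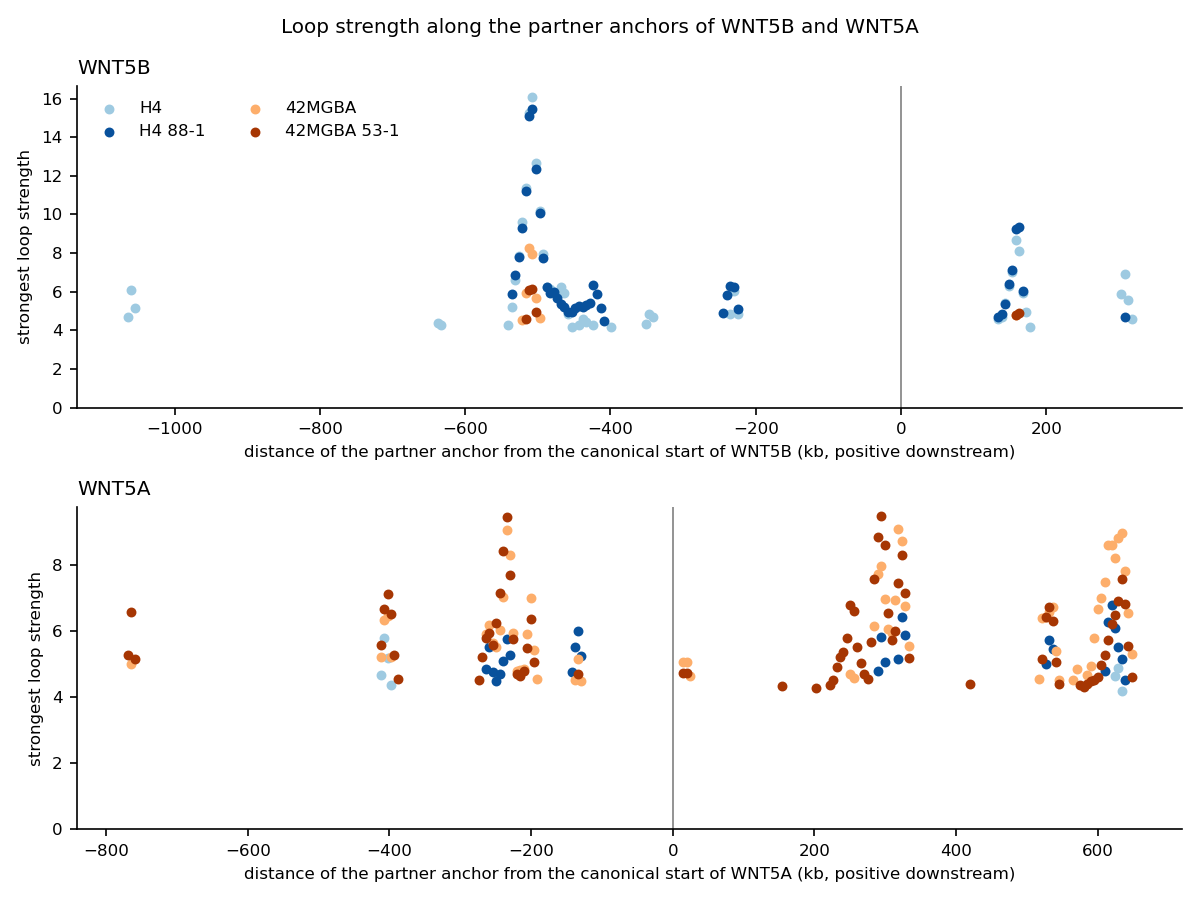
Highest loop strength (y axis) at each partner anchor of WNT5B (top) and WNT5A (bottom) against the distance of the partner anchor from the canonical start in kb (x axis, positive downstream), by cell line. WNT5B reaches 16.06 in H4 and 8.28 in 42MGBA, and WNT5A reaches 5.79 in H4 and 9.48 in 42MGBA 53-1.

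WNT7B did not differ past the cutoff between the STAG2-mutant lines. Its 47 merged pairs had a median log2 ratio of −0.02 and z-scores from −0.93 to 0.74. The median of chromosome 22 in this comparison was 0.50 toward 42MGBA, and relative to it all 47 pairs were lower in 42MGBA. WNT7A had 9 merged pairs, all entered through 42MGBA alone, with z-scores up to 1.89, and none passed the cutoff. After subtracting the chromosome median 4 of them were called higher in 42MGBA (z up to 2.44). WNT11, not listed in H4, had 10 merged pairs with z-scores up to 1.05, and WNT9A had 6 with z-scores up to 1.11, and these too entered through 42MGBA alone.

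Between the STAG2-corrected lines, 16 of 213 merged pairs at the ligands (7.51%) were lower in 42MGBA 53-1 than in H4 88-1, against 2.09% of all merged pairs, and 1 was higher, against 1.92%. Of the 16, 7 belonged to WNT5B, 6 to WNT7A and 3 to WNT7B. All 6 WNT7A calls and 5 of the 7 WNT5B calls entered through H4 88-1 alone. The share over all merged pairs does not allow for this. Of all 34 merged WNT5B pairs, 32 entered in this way. The medians of chromosomes 3 and 12 were −0.49 and −0.46. After subtracting the chromosome median 2 WNT7A pairs were called lower, and no WNT5B or WNT7B pair was. All 64 merged WNT7B pairs were lower in 42MGBA 53-1, of which 51 entered through H4 88-1 alone and 13, the 3 called pairs included, were among the strongest in both lists. All 17 WNT7A pairs were absent from 42MGBA 53-1. At the FBLN1 summit of WNT7B H4 88-1 was 1.85-fold higher (z = −2.33), and at the WNT7A summit it was at least 3.28-fold higher (z = −3.37). The pair that was higher belonged to WNT5A, 294 kb downstream of its start, with strengths of 4.71 and 9.48 (z = 1.99). Its WNT5A anchor lies 17189 bases from the canonical start, and with canonical starts alone WNT5A had no call. After subtracting the chromosome median 45 of 86 WNT5A pairs were called higher in 42MGBA 53-1 (z up to 2.87), against 2.69% of all merged pairs. Of the 86, 83 entered through 42MGBA 53-1 alone.

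WNT9A had no call in either system. Its strongest loops all led to SNAP47, a gene for a SNARE-type membrane fusion protein, 185.5 to 190.3 kb downstream of its only annotated start. The pair between the start anchor and the anchor at 185.5 kb had strengths of 5.20, 7.61, 8.69 and 7.51 in the order of lines used above. H4 was lowest, and the other 3 lines lay close together. No WNT9A pair passed the cutoff between systems either.

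The protein-coding genes with strongest strengths nearest to those of WNT7B over the 4 lines, among 4548 genes compared, were FBLN1, COMMD9 and PRR5L. FBLN1 had identical values because it lies at the other end of the same anchor pair. COMMD9, on chromosome 11, had strongest strengths of 14.8, 16.3, 12.9 and 9.10 in the same order of lines, a summed absolute log2 difference of 0.19. PRR5L, also on chromosome 11, had 15.57, 16.72, 12.91 and 8.73, a summed difference of 0.25.

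The rest of the Wnt pathway was followed through 64 genes, of which 43 had a listed pair. In the H4 pair 26 had a merged pair, 4 had a gained pair and 1 a lost pair, against 9.56% and 5.86% of all protein-coding genes with a merged pair. RYK, a receptor for WNT ligands, had 12 gained pairs of 52, and its most extreme pair rose from 4.52 to 9.85 (z = 2.97). DKK1, a secreted antagonist that binds LRP5 and LRP6, had 2 gained pairs of 46 (z up to 2.24). WNT4, another ligand, had 1 of 11 (z = 2.13), and LGR6, a receptor for R-spondins, had 1 of 33 (z = 2.02). SFRP4, a secreted protein that binds WNT ligands, had 6 lost pairs of 38, the most extreme with a strength of 7.84 in H4 and absent from H4 88-1 (z = −2.26). The most extreme pairs of RYK, WNT4 and LGR6 had strengths of 4.52, 4.64 and 5.66 in H4. These lie below the 100000 strongest of H4, which end at 5.83. These pairs entered through H4 88-1 alone, which fixed their direction, and that of SFRP4 entered through H4 alone. That of DKK1 was among the strongest in both lists. None of 7 merged genes of the beta-catenin pathway, and not the 1 merged gene for ligand secretion, had a call.

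In the 42MGBA pair 21 of the 64 genes had a merged pair, 1 had a gained pair and 1 a lost pair, against 6.37% and 7.14% of all protein-coding genes. DKK1 had 2 gained pairs of 60, with the most extreme pair at 9.63 in 42MGBA and 12.30 in 42MGBA 53-1 (z = 2.19). LGR6 had 3 lost pairs of 20, the most extreme at 10.90 and 6.18 (z = −2.39). None of 7 merged receptor genes and 4 merged genes of the beta-catenin pathway had a call. LGR6 was thus, like WNT7A and WNT7B, called gained in H4 88-1 and lost in 42MGBA 53-1, and DKK1 was called gained in both. The LGR6 gain was 1 pair close to the cutoff (z = 2.02) that entered through H4 88-1 alone. The pathway calls are given without subtracting the chromosome median.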

How the data were processed

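Hi-C libraries of the 4 cell lines were made with the Arima Hi-C+ kit. The authors aligned the reads to hg19 with Bowtie, corrected pairs of 5 kb anchors for bias with HiCorr, enhanced them with DeepLoop, and deposited the 300000 strongest pairs of each line with a signal, named loop strength here. The 2 replicates are pooled and depth per pair is unknown. Pairs below the end of a list are not held, so that the ratio of a pair absent from a list is a bound.

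Start sites came from GENCODE release 44 on hg19. The z-scores were taken over the whole merged table, and 10 alternatives were run per comparison. All 10 ligands were named, with the strongest pair of each line and the most extreme z-scores, up to 4 called pathway genes per direction, and the 3 genes nearest to WNT7B. Summits and promoter sequences were added after values were seen, and the sequence upstream of WNT7B is not reported here. The ligands and gene lists were chosen with earlier results of these data known. The code was tested on simulated data. The 12 RNA-seq samples were not analysed here. Calculations were run in Python 3.11.15 (pandas 2.3.3, numpy 2.4.6, scipy 1.17.1) and plotted in matplotlib 3.10.9.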

Additional observations from a re-analysis of the deposited data

Results flagged for a closer look

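WNT7A and WNT7B had median log2 ratios of STAG2-corrected over STAG2-mutant strength of opposite sign in the isogenic pairs. That of WNT7A was 1.04 for H4 88-1 and −1.04 for 42MGBA 53-1. All 17 merged pairs in the former and all 9 in the latter entered the merge through the line in which they were high, so that their direction was fixed by it. That of WNT7B was 0.26 for H4 88-1 and −0.63 for 42MGBA 53-1. After subtracting the median of chromosome 22 the WNT7B medians were −0.08 and −0.34, of the same sign, with 29 of 68 and 3 of 39 pairs above 0. The difference between systems was not tested, since each line is represented by 1 pooled list.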

How the results depend on the processing

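Of 80 counts of ligand pairs past the cutoff under the 10 alternatives, 47 stayed within 1.5 times the reported count. The 14 gained pairs in H4 88-1 became 23 with 200000 pairs merged, 9 with 50000 and 6 with starts inside the anchor, and the 0 lost pairs became 2 after centring on the chromosome median. The 11 lost pairs in 42MGBA 53-1 became 24 with 200000 merged, 6 with 50000 and 5 after centring, and the 0 gained became 1 with 200000 and 3 after centring. Between H4 and 42MGBA, the 12 lower pairs became 0 with an intercept or canonical starts only, 7 with 50000, 4 with starts inside the anchor, 19 with starts within 10 kb and 2 after centring, and the 0 higher became 1 without absent pairs or within size bins, 13 with 200000 and 32 after centring. Between H4 88-1 and 42MGBA 53-1, the 16 lower pairs became 2 with an intercept or after centring, 38 with 200000, 6 with 50000 or starts inside the anchor, 25 with starts within 10 kb and 9 with canonical starts, and the 1 higher pair became 0 with an intercept, 50000 merged, starts inside the anchor or canonical starts, 11 with 200000, 2 within size bins and 47 after centring. Within the isogenic pairs the most extreme z-scores of WNT7A kept their direction and call wherever there was a value. In the 42MGBA pair it had none without absent pairs. Between H4 and 42MGBA, where WNT7A had no call, pairs were called higher in 42MGBA with 200000 merged (3), after centring (4), without absent pairs (1) and within size bins (1). WNT7B fell below the cutoff in the H4 pair with 50000 merged (z = 1.81) and after centring (z = 1.53), and in the 42MGBA pair after centring (z = −1.79). No paired analysis was possible because the replicates of each line are pooled in 1 list, and no replicate could be left out. The causes of these differences were not tested.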
